A study of Mus musculus with 4 samples.

Results

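Undifferentiated spermatogonia of the mouse testis range from stem cells to the progenitors that are on their way to differentiation. GFRA1, the ligand-binding receptor for the growth factor GDNF, marks the stem cell end of this range, and GDNF signals through GFRA1 and RET. LIN28A, an RNA-binding protein that blocks maturation of let-7 microRNAs, and NANOS3, an RNA-binding protein of the Nanos family, are known from undifferentiated spermatogonia, and NEUROG3, a basic helix-loop-helix transcription factor, from early progenitors.

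Progenitor-like cells were defined as Plzf +/+ cells with at least 1 unique molecular identifier (UMI) of Lin28a or Nanos3, 0 UMIs of Gfra1 and fewer than 10 UMIs summed over the 6 spermatid genes Prm1, Prm2, Tnp1, Tnp2, Oaz3 and Smcp. Of 897 Plzf +/+ cells, 109 followed this rule, of 1249 cells in the whole series. The cells were thus chosen by the UMI counts of 9 genes, whose values describe the cells and were not tested. On GRCm38.p6, the annotation of RefSeq places Lin28a on chromosome 4 (134003330 to 134019196), Nanos3 on chromosome 8 (84173733 to 84176552) and Gfra1 on chromosome 19 (58235581 to 58455946).

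The cells came from testes of 4 wk old mice with the Eomes allele tm1.1(icre/ERT2)Reb, in which the Eomes locus drives iCreERt2 and tdTomato, and mice of both genotypes carried it. Single cells were sorted by tdTOMATO fluorescence with a gate set on littermates without the allele, so only cells with the reporter were sampled. Plzf +/+ cells filled plates 1 and 2 and most of plate 4, with 317, 303 and 277 cells. Plzf lu/lu mice carry the luxoid mutation of Plzf, listed in the tables as Zbtb16, and their cells filled plate 3 (314 cells) and the rest of plate 4 (38 cells). The labels name plates and no animals, so the SDs, SEs and tests below rest on the spread between plate libraries. This spread need not hold the spread between mice, and in the edgeR tests and SEs it is in part shared over genes. Intervals of shares and of UMI ratios rest on counts pooled over libraries or taken within one. Well barcodes were reused across plates (358 of 376 occurred in 2 or more libraries), and on plate 4 no barcode occurred in both genotypes. By the labels, 5 Plzf +/+ cells of plate 4 lay in wells of the Plzf lu/lu range, and none of the progenitor-like cells was among them.

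The progenitor-like cells numbered 42 of 317 on plate 1 (13.2%; 95% interval 9.72 to 17.5), 28 of 303 on plate 2 (9.24%; 6.23 to 13.1) and 39 of 277 on plate 4 (14.1%; 10.2 to 18.7). Intervals of shares are exact Clopper-Pearson intervals and cover counting error only. Nanos3 without Lin28a was found in 46 of the 109 cells, Lin28a without Nanos3 in 35 and both in 28. The mix differed by library, since Nanos3 alone made up 21 of 42 cells on plate 1 and 15 of 28 on plate 2 but 10 of 39 on plate 4. In the same way Lin28a stood at 90, 77.4 and 228 CPM (TMM-normalized UMI counts scaled to a common library total) in the sums of plates 1, 2 and 4, and Nanos3 at 187, 169 and 126 CPM. The cells were lightly marked. In 56 of them the call rested on exactly 1 UMI of the pair of genes, and the highest counts in a cell were 9 UMIs of Lin28a and 7 of Nanos3.

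The limit on spermatid genes removed 14 of 123 cells, and it cut few cells closely, with 3 members at 5 to 9 UMIs and 4 excluded cells at 10 to 19 UMIs. No UMI of the 6 genes was found in 57 members. A larger group lay just across the Gfra1 boundary, where 52 cells had Lin28a or Nanos3 and exactly 1 Gfra1 UMI. Under the spermatid limit, 175 cells had Gfra1 together with Lin28a or Nanos3. Over all Plzf +/+ cells, Lin28a was found in 140 of 566 with Gfra1 (24.7%) and 70 of 331 without (21.1%). For Nanos3 these counts were 101 (17.8%) and 83 (25.1%).

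Nearly all of the cells were germ cells by Dazl or Ddx4, RNA-binding proteins of the germ line, with 108 of 109 cells holding a UMI of 1 of them. Among somatic markers, the lists for Leydig, peritubular myoid, macrophage, endothelial, T and NK, and erythroid cells summed to at most 11.8 CPM in any of the 3 libraries. The 12 Sertoli genes measured summed to 330, 300 and 438 CPM in progenitor-like cells of plates 1, 2 and 4 and to 513, 401 and 474 CPM in Gfra1 cells. Most of that sum was Ctsl, a lysosomal protease whose expression is not limited to Sertoli cells, at 323, 276 and 354 CPM in progenitor-like cells. Each of the other Sertoli genes was found in at most 4 of the 109 cells, Sox9 in 1, Clu in 2, Rhox5 in 4 and Wt1 in 4, and Wt1, Clu and Rhox5 had their UMIs on plate 4.

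To ask how these cells differ from spermatogonia of the Gfra1 class at equal depth, each was matched within its library on total UMIs to a cell with a Gfra1 UMI and no UMI of Lin28a or Nanos3, under the same spermatid limit. The pairs differed in total UMIs by a median of 1.01 times and at most 1.29 times, and the medians were 6110 and 6180 UMIs per cell. Of the progenitor markers given for this cell type, Neurog3 did not enter the rule. It was found in 15 of 109 progenitor-like cells (13.8%; 7.91 to 21.7) and in 0 of 109 matched Gfra1 cells, for which the exact interval reaches 3.33% (3 counts of 109 cells would be 2.75%). By library it stood at 23.3, 33.9 and 20.4 CPM on plates 1, 2 and 4, against 0 in each sum of Gfra1 cells, so all 3 libraries were high on the progenitor-like side. With 3 UMIs as the limit for a count of 0 over the group, Neurog3 was at least 6.32-fold higher. Too few UMIs (19) remained for the usual filter on low counts, and in the fit without a filter edgeR gave an adjusted p of 0.00388. That fit called 255 of 19464 genes (1.31%), 0.647% higher and 0.663% lower. Of all 27 Plzf +/+ cells with Neurog3, 15 were progenitor-like.

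**Figure D1:**
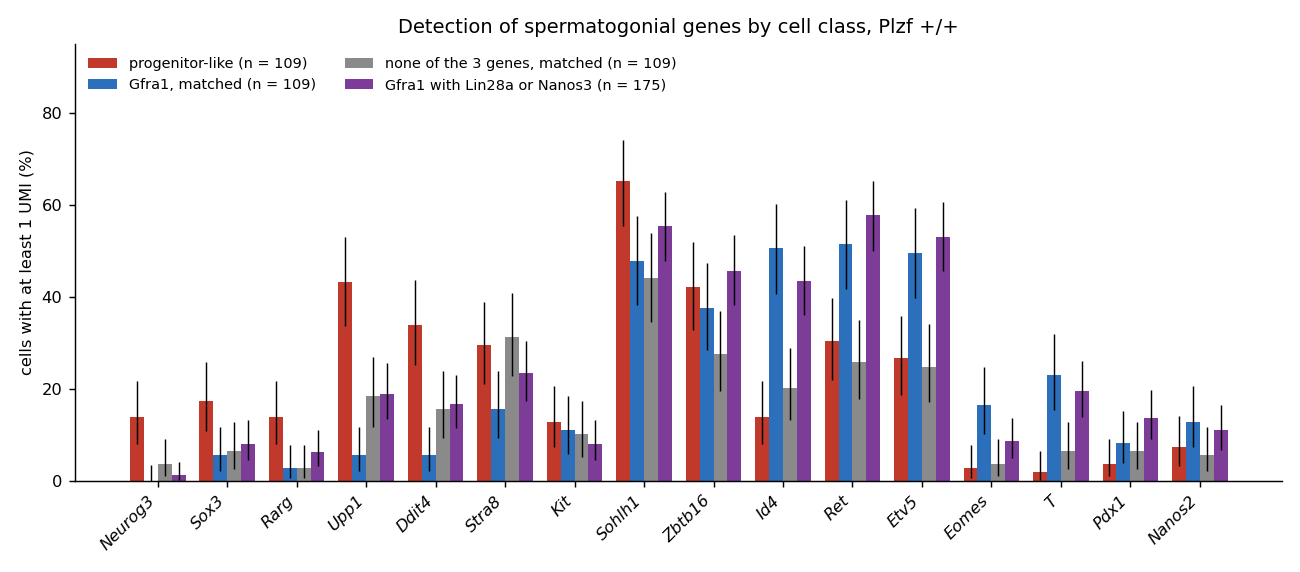
Share of Plzf +/+ cells with at least 1 UMI of each gene (y axis, percent) in progenitor-like cells, matched Gfra1 cells, matched cells with none of the 3 genes, and cells with Gfra1 together with Lin28a or Nanos3; error bars are exact 95% intervals over cells. Upp1 was found in 43.1% of progenitor-like cells and 5.5% of matched Gfra1 cells, while Id4 was found in 13.8% and 50.5%.

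Upp1 and Ddit4 rose most clearly among the progenitor genes. Upp1, which encodes uridine phosphorylase, stood at 120, 145 and 118 CPM in progenitor-like cells of plates 1, 2 and 4 and at 16.3, 14.5 and 0 CPM in Gfra1 cells. The groups did not overlap in any library, and the log2 fold change was 3.53 (SE 0.42, edgeR quasi-likelihood test, adjusted p = 1.81e-13). Ddit4, an inhibitor of mTORC1, stood at 107, 96.8 and 81.5 CPM against 13, 9.64 and 16.5 CPM. Its log2 fold change was 2.81 (SE 0.42, edgeR adjusted p = 8.5e-09), and it was higher in 3 of 3 libraries. Both were also found in more cells, Upp1 in 47 of 109 progenitor-like and 6 of 109 Gfra1 cells, and Ddit4 in 37 and 6. After every cell was thinned to 2000 UMIs, Upp1 was found in 17.1% of 105 progenitor-like cells and 1.22% of 327 Gfra1 cells, and Ddit4 in 14.3% and 2.14%. Thinning lowered the shares and kept their order. Of all Plzf +/+ cells with Upp1, 47 of 133 were progenitor-like (35.3%), and of those with Ddit4, 37 of 128 (28.9%).

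Across all genes, 5433 passed the filter and 246 were called at an adjusted p under 0.05, which is 4.53% of those tested, with 131 higher (2.41%) and 115 lower (2.12%) in progenitor-like cells. The median log2 fold change of all genes tested was 0.01. The count leaned on the libraries, with 77, 156 and 126 calls when plate 1, 2 or 4 was left out, and on the pairing within libraries, with 120 calls when the library was not a term of the fit. DESeq2 called 18 genes (0.331%), all among the 246, with Upp1, Ddit4, Stra8, Uchl1, Eno1 and Hmgn5 among the higher and Id4, Plvap, Tcl1, Nefm and Nid1 among the lower.

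**Figure D2:**
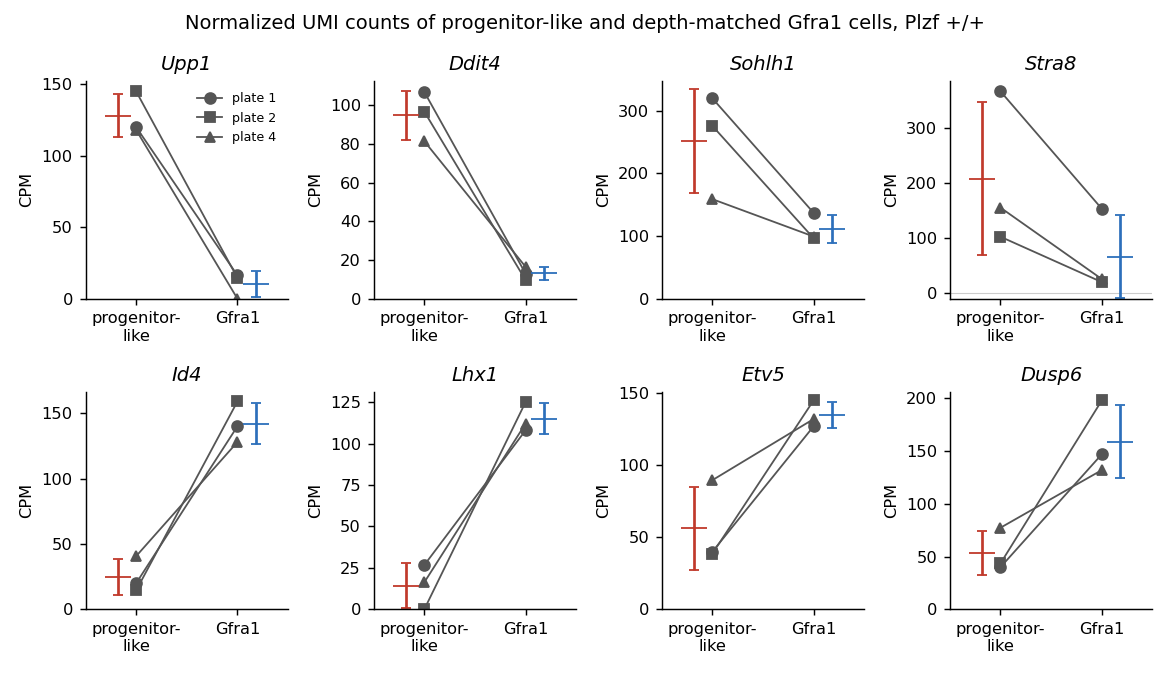
CPM (y axis) of 4 genes called higher and 4 called lower in progenitor-like cells, each point the sum of 1 Plzf +/+ library in 1 cell class, with lines joining the classes of a library; colored bars are the mean and SD of 3 libraries. Upp1 and Id4 do not overlap between classes, while Stra8 of plate 1 in Gfra1 cells (153 CPM) lay near the progenitor-like values of plates 2 and 4.

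The progenitor list held 10 genes besides the pair of the rule. A gene can pass the filter through the class in which it is high, so counts over the genes that passed only describe a list. Of the 10 genes 3 passed, of which Upp1 and Ddit4 rose and Dppa4 stood at a log2 fold change of -0.18 (edgeR adjusted p = 0.866). Those under the filter were read by their UMIs. Sox3, a transcription factor of the SRY family, had 27 UMIs in 19 progenitor-like cells against 7 UMIs in 6 Gfra1 cells, a ratio of 3.85 (95% counting interval 1.64 to 10.5). Rarg, the retinoic acid receptor that marks progenitors competent to differentiate, had 17 UMIs in 15 cells against 3 UMIs in 3 cells (ratio 5.65, 1.64 to 30.1). Neither passed the test without the filter (edgeR adjusted p = 0.107 for Sox3 and 0.25 for Rarg), so at this depth the counts of Sox3 and Rarg did not settle the difference between libraries.

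Counted over the whole list, at least 1 of the 10 genes was found in 91 of 109 progenitor-like cells (83.5%; 75.2 to 89.9), 63 of 109 matched Gfra1 cells (57.8%; 48 to 67.2) and 74 of 109 matched cells with none of the 3 genes (67.9%; 58.3 to 76.5). Dppa4, Nanos1 and Lin28b, which were found in 28, 23 and 14 Gfra1 cells, make up much of the share in that class. The 5 genes Neurog3, Sox3, Rarg, Upp1 and Ddit4 were singled out from the list with results of these data known, so the larger gap they give describes the cells and supports nothing. At least 1 of these 5 was found in 72 progenitor-like cells (66.1%), 17 Gfra1 cells (15.6%) and 39 cells with none of the 3 genes (35.8%). None of the 5 was found in 37 progenitor-like cells, so a UMI of Lin28a or Nanos3 and these genes did not always occur together.

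Split by their UMIs of Lin28a and Nanos3, which the rule itself used, the cells of the 3 libraries pooled are described here without a test. Upp1 was found in 30 of 53 cells with 2 or more such UMIs (56.6%; 42.3 to 70.2) and 17 of 56 cells with exactly 1 (30.4%; 18.8 to 44.1), and Ddit4 in 45.3% and 23.2%, with overlapping intervals for both genes. The median depths of those groups were 7127 and 5892 UMIs, so depth moved with the shares, and its part was not tested. Id4 was found in 11.3% and 16.1%, with overlapping intervals. Across the boundary, in the 52 cells with 1 Gfra1 UMI, Upp1 was found in 28.8% and Id4 in 36.5% (median 7269 UMIs), and in the 123 cells with 2 or more Gfra1 UMIs, Upp1 was found in 14.6% and Id4 in 46.3% (median 7766 UMIs). The intervals of the Upp1 share overlapped between cells with 1 Gfra1 UMI (17.1 to 43.1) and progenitor-like cells with 1 UMI.

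**Figure D3:**
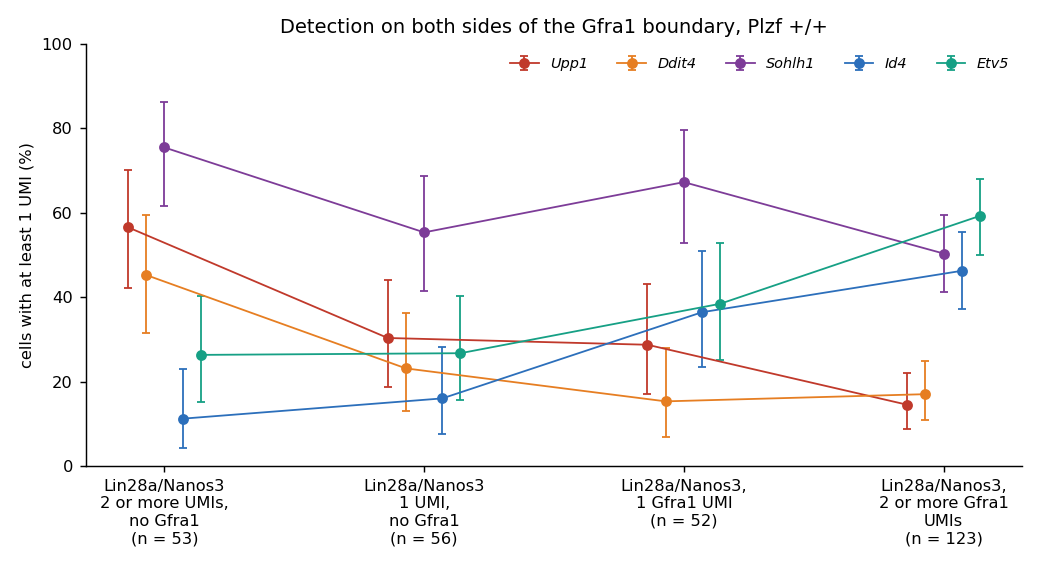
Share of Plzf +/+ cells with at least 1 UMI (y axis, percent) of 5 genes in cells with Lin28a or Nanos3, split by their UMIs of these genes and by Gfra1; error bars are exact 95% intervals over cells. Id4 was found in 11.3% of cells at the left and 46.3% at the right, and Upp1 in 56.6% and 14.6%.

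Cells marked by both Lin28a and Nanos3 held Sohlh1 in 24 of 28 cells and Zbtb16 in 19 of 28. Among cells with Lin28a alone these counts were 20 and 13 of 35, and among cells with Nanos3 alone they were 27 and 14 of 46. Neurog3 was spread over the 3 kinds of cell, with 4 of 35, 6 of 46 and 5 of 28. Its carriers held Upp1 in 8 of 15 cells and Ddit4 in 8 of 15, against 39 and 29 of the 94 cells without Neurog3. The intervals overlapped for Upp1 (26.6% to 78.7% against 31.4% to 52.1%) and for Ddit4 (26.6% to 78.7% against 21.7% to 41.2%). The groups of this paragraph were not matched on depth, and its part was not tested.

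Of the genes of the step into differentiation, Stra8 and Sohlh1 rose. Stra8, a retinoic acid-responsive gene needed for entry into meiosis, stood at 367, 102 and 155 CPM in progenitor-like cells of plates 1, 2 and 4 and at 153, 19.3 and 24.8 CPM in Gfra1 cells. It was higher in 3 of 3 pairs, though the plates differed more from each other than the classes did within plate 1 (log2 fold change 1.67, SE 0.25, edgeR adjusted p = 8.29e-09). Without the library in the fit its adjusted p was 0.615. Sohlh1, a transcription factor needed for spermatogonial differentiation, stood at 320, 276 and 159 CPM against 137, 96.4 and 99.3 CPM (log2 fold change 1.16, SE 0.21, edgeR adjusted p = 6.37e-06). It lost the call without plate 1 and in DESeq2. Kit, the receptor that marks differentiating spermatogonia, had 21 UMIs in each class, in 14 and 12 cells (edgeR adjusted p = 0.998 without the filter), and Sohlh2 had 39 and 27 UMIs (0.897). Of the 12 genes of the differentiating list 7 passed the filter, 2 rose and 0 fell, beside 2.41% and 2.12% of all genes, with a median log2 fold change of 0.61 beside 0.01 over all genes, and 5 had an unadjusted p under 0.05. Kit or Stra8 was found in 35 progenitor-like and 24 Gfra1 cells.

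Several genes of the stem cell state fell. Without the filter 7 of the 22 genes of the list were called lower and 0 higher, where 0.663% of all genes were called lower. With the filter 10 of them were tested, 6 fell and 0 rose (DESeq2 called 1), beside 2.12% of all genes called lower. All 10 had a negative log2 fold change, with a median of -1.20. The rule chose one side for Gfra1 itself, which is part of the same state, and Gfra1 was left out of the list. Like the other lists, this one was chosen with earlier results of these data known. Its genes can pass the filter through the class in which they are high, so these counts only describe the list. Id4, an inhibitor of basic helix-loop-helix factors, stood at 20, 14.5 and 40.7 CPM in progenitor-like cells of plates 1, 2 and 4 and at 140, 159 and 128 CPM in Gfra1 cells. The classes were far apart in every library (log2 fold change -2.47, SE 0.35, edgeR adjusted p = 8.77e-10), and the call held in each of 16 alternative fits (adjusted p at most 0.0218).

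Lhx1, Bcl6b and Etv5, transcription factors known to respond to GDNF, were each called lower. Lhx1 stood at 26.7, 0 and 16.3 CPM against 108, 125 and 112 CPM and fell by 2.82 on the log2 scale (SE 0.39, edgeR adjusted p = 5.74e-10). Bcl6b, a transcriptional repressor, stood at 20, 14.5 and 8.15 CPM against 55.4, 140 and 53.8 CPM (log2 fold change -2.37, edgeR adjusted p = 1.01e-05). Etv5, an ETS factor, stood at 40, 38.7 and 89.6 CPM against 127, 145 and 132 CPM (log2 fold change -1.27, edgeR adjusted p = 0.00109). In each of these genes the lowest Gfra1 library lay above the highest progenitor-like one. DESeq2 called none of them, Bcl6b also lost the call without plate 2, and Etv5 without plate 1 or 2. Dusp6, a phosphatase that is a feedback inhibitor of ERK signaling, fell by 1.55 (edgeR adjusted p = 6.73e-06, not called without plate 1). The adhesion molecule Mcam fell by 1.12 (edgeR adjusted p = 2.33e-07). DESeq2 called neither Dusp6 nor Mcam. The receptor Ret, the signaling partner of GFRA1, stood at 30, 72.6 and 93.7 CPM against 78.2, 120 and 141 CPM, lower in 3 of 3 libraries, but did not pass the test (log2 fold change -0.83, edgeR adjusted p = 0.0922). Ccnd2, a G1 cyclin, did not pass either (-0.53, edgeR adjusted p = 0.063).

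The T-box factors T and Eomes were rare in progenitor-like cells. T had 2 UMIs in 2 cells against 45 UMIs in 25 matched Gfra1 cells, a ratio of 0.0443 (0.00521 to 0.17), and fell in the fit without the filter (edgeR adjusted p = 4.22e-07). Eomes, whose locus drives the reporter used for the sort, had 3 UMIs in 3 cells against 21 UMIs in 18 cells, a ratio of 0.143 (0.0272 to 0.477), and missed the threshold in that fit (edgeR adjusted p = 0.102). Pdx1 had 5 and 12 UMIs and Nanos2 8 and 16, with an adjusted p of 0.897 for both. Any of the 4 was found in 16 progenitor-like cells (14.7%; 8.63 to 22.7) and 44 Gfra1 cells (40.4%; 31.1 to 50.2).

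Genes expressed across undifferentiated spermatogonia mostly did not pass the test. Of 14 such genes 9 passed the filter and 1 rose, beside 2.41% of all genes called higher. Of the 9 genes 7 had a positive log2 fold change, with a median of 0.23. The gene called was Uchl1, a ubiquitin hydrolase, at 953, 900 and 961 CPM against 551, 574 and 509 CPM (log2 fold change 0.79, edgeR adjusted p = 8.12e-09). Zbtb16 stood at 96.7, 87.1 and 73.3 CPM against 91.3, 48.2 and 78.6 CPM, with overlapping groups (log2 fold change 0.21, SE 0.31, edgeR adjusted p = 0.822). Sall4 had 110 UMIs in each class (0.997), and Bmi1 had 68 and 86 (0.6). The germ cell genes Dazl (log2 fold change 0.18, SE 0.1) and Ddx4 (-0.01, SE 0.14) also missed the threshold.

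**Figure D4:**
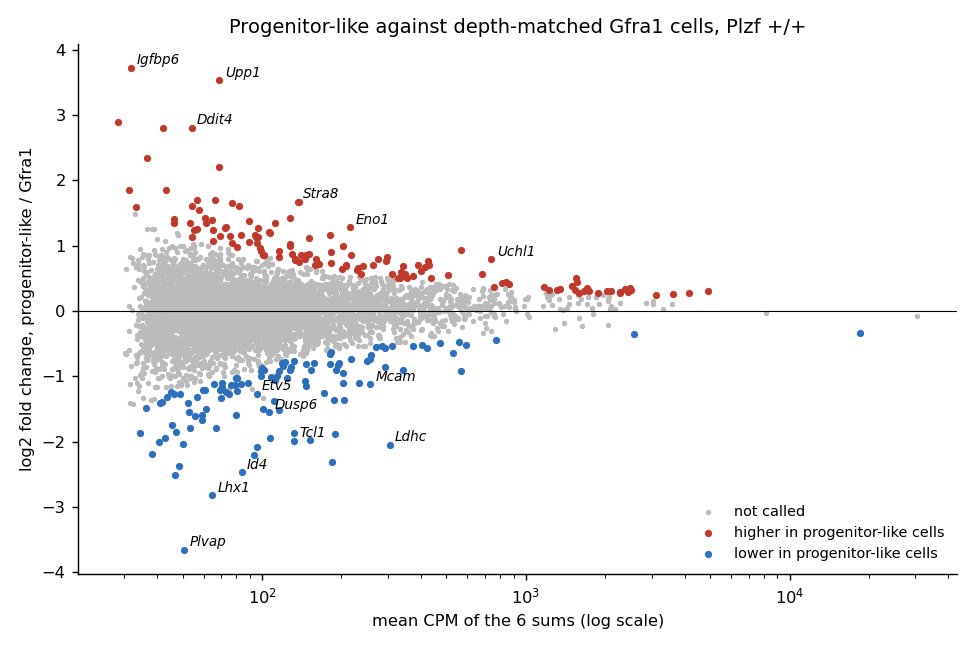
Log2 fold change of progenitor-like over matched Gfra1 cells (y axis) against the mean CPM of the 6 sums (x axis, log scale) for 5433 genes, with the 131 genes called higher in red and the 115 called lower in blue. Upp1 (3.53) and Igfbp6 (3.72) lie at the top, and Lhx1 (-2.82) and Plvap (-3.66) at the bottom.

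By size of change among genes called and moving the same way in every library, Igfbp6, a binding protein for insulin-like growth factors, led the higher genes at 43.3, 62.9 and 73.3 CPM against 6.52, 4.82 and 0 CPM (log2 fold change 3.72, edgeR adjusted p = 6.59e-06). It was found in 27 progenitor-like and 3 Gfra1 cells. After Upp1 came Dlk1, a membrane protein of the Notch ligand family encoded by an imprinted gene (2.89), Oasl2, an interferon-induced gene (2.81), Ddit4, Galnt12, a glycosyltransferase (2.35), Ndrg4 (2.21), Mfsd5, Acaa1b, a peroxisomal thiolase (both 1.85), Peo1, the mitochondrial DNA helicase, Prtg (both 1.70), and Hmgn5, a nucleosome-binding protein (1.67). Oasl2, Mfsd5, Acaa1b and Prtg lost the call without plate 1, and Mfsd5 also without plate 2 or 4. DESeq2 gave no call for any of the 12 but Upp1, Ddit4 and Hmgn5. Among the lower genes, Plvap, which encodes a membrane protein best known from endothelium, stood at 6.67, 4.84 and 8.15 CPM against 61.9, 135 and 86.9 CPM (log2 fold change -3.66, edgeR adjusted p = 1.42e-10). The 4 genes of the endothelial list reached at most 40.1 CPM in a library of Gfra1 cells and 11.8 CPM in one of progenitor-like cells. The others, beside Lhx1, Id4 and Bcl6b, were Mpzl2, a cell adhesion molecule (-2.51), Nid1, a basement membrane protein (-2.20), Thnsl2 (-2.19), Nefm, a neurofilament subunit (-2.08), Ldhc (-2.05), Cdc42ep3 (-2.04), Rasl11a (-2.01) and Tcl1, a coactivator of AKT (-1.99). Thnsl2, Nefm, Cdc42ep3 and Rasl11a lost the call without plate 1, and Cdc42ep3 also without plate 2. DESeq2 gave no call for Mpzl2, Thnsl2, Ldhc, Cdc42ep3 and Rasl11a.

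Ldhc, the lactate dehydrogenase of spermatocytes and later cells, rested on few cells. It stood at 36.7, 53.2 and 248 CPM in progenitor-like cells and 45.6, 651 and 794 CPM in Gfra1 cells, so the classes were close on plate 1 and apart on plates 2 and 4. Of 341 UMIs in the matched Gfra1 cells 123 came from 1 cell. The gene was not called in the thinned fit, the fit on all Gfra1 cells, the fit without the library or DESeq2. The spermatid list summed to 210 to 280 CPM in progenitor-like and 201 to 554 CPM in Gfra1 cells, and its share in the difference of Ldhc was not tested.

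The counts of called genes in the cell cycle and metabolism lists are to be read beside the 2.41% of all genes called higher and the 2.12% called lower. In the S phase list 36 of 40 genes passed the filter and 2 fell, Mcm4, a subunit of the replicative helicase (log2 fold change -0.91, edgeR adjusted p = 0.00778), and Prim1, the catalytic subunit of DNA primase (-1.03, 0.00473). In the G2M list 48 of 50 passed the filter, and edgeR called 0 (6 at an unadjusted p under 0.05; DESeq2 0), with a median of 0.07. Of 18 glycolysis genes 6 passed the filter and 2 rose, Eno1 at 343, 319 and 257 CPM against 140, 116 and 120 CPM (log2 fold change 1.28, edgeR adjusted p = 2.16e-08), and Gpi1 (0.51, 0.0135). The sum of the glycolysis list was 1865, 1969 and 1685 CPM against 1532, 1609 and 1306 CPM, higher in each library. Of 29 tested genes for oxidative phosphorylation, Cox4i1 rose (0.28, edgeR adjusted p = 0.0276), but was not called without the filter. Of 7 tested genes of the mitochondrial genome mt-Cytb (0.30) and mt-Nd1 (0.27) rose. The sum of the mitochondrial list was also higher in each library (17055, 16596 and 16192 CPM against 15900, 13475 and 13968 CPM). DESeq2 called none of Cox4i1, mt-Cytb and mt-Nd1. Of 9 tested germ cell genes, Tdrd1, a Tudor protein of the piRNA pathway, rose (0.86, edgeR adjusted p = 0.0411), but was not called without the filter or in DESeq2. Of 18 targets and partners of the LIN28A and let-7 pathway, 11 passed the filter and edgeR called 0 (2 at an unadjusted p under 0.05; DESeq2 0), with a median of -0.16. In the fit without the filter Mycn, a let-7 target, rose, with 42 UMIs against 9 (edgeR adjusted p = 0.00235). All 16 genes of the retinoid list lay under the filter.

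A second comparison asked what sets the cells apart from cells that also lack Gfra1 but show neither Lin28a nor Nanos3. Suitable partners were shallower. The pairs differed by up to 2.06 times in total UMIs, and the median was 4900 UMIs for the cells with none of the 3 genes. Of 4953 genes tested 68 were called (1.37%), 22 higher (0.444%) and 46 lower (0.929%). This count was fragile, at 2, 96 and 4 calls without plate 1, 2 or 4, 6 without the library in the fit and 3 with DESeq2 (0.0606%). Both comparisons share the progenitor-like cells, so their results are not independent.

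Upp1 and Ddit4 were again the progenitor genes called higher. Upp1 stood at 118, 144 and 117 CPM against 70.3, 46.8 and 38.2 CPM (log2 fold change 1.24, SE 0.31, edgeR adjusted p = 0.00739), and Ddit4 at 105, 96.1 and 80.7 CPM against 52.7, 40.9 and 19.1 CPM (1.31, SE 0.35, adjusted p = 0.0216). In each library, cells with none of the 3 genes lay between Gfra1 cells and progenitor-like cells in these levels, with the sums of each comparison normalized separately. Upp1 lost the call without any 1 of the libraries, and Ddit4 without plate 1 or 4. Both also lost it without the library in the fit and in DESeq2. The other 10 of the 12 higher genes named by size were Hmgn5 (1.28), Nab2, a corepressor of EGR factors (1.15), Psmb10, an immunoproteasome subunit (1.12), Egr4 (1.09), Tdrd5, a Tudor protein of the piRNA pathway (1.04), Commd10 (0.97), Apoa1bp (0.96), Stau1, an RNA transport protein (0.89), Agpat5 (0.88) and Pkm, pyruvate kinase (0.78). No call of these genes held in DESeq2. Of the stem cell list 5 genes passed the filter, all with a negative log2 fold change (median -0.18), and edgeR called 0 (2 at an unadjusted p under 0.05, Dusp6 and Mcam; DESeq2 0). The sum of the 22 genes was 647, 790 and 864 CPM in progenitor-like cells and 767, 958 and 1187 CPM in cells with none of the 3 genes, lower in each library. Id4 had 19 UMIs against 28 (edgeR adjusted p = 0.946 without the filter). Of the differentiating genes, Stra8 stood at 360, 101 and 153 CPM against 286, 514 and 124 CPM, which overlap (log2 fold change -0.47, SE 0.82, edgeR adjusted p = 0.92). Over 13 alternative fits its log2 fold change ran from -1.14 to 0.33, and 1 of them called it.

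The lower genes included transcripts known from spermatocytes and spermatids, such as Ldhc, Fabp9 and Crisp2, a cysteine-rich protein of sperm. Ldhc stood at 36, 52.9 and 246 CPM against 488, 205 and 923 CPM (log2 fold change -2.37, edgeR adjusted p = 6.96e-32), Fabp9 at 36, 19.2 and 105 CPM against 264, 117 and 435 CPM (-2.38), and Crisp2 at 52.4, 28.8 and 64.6 CPM against 259, 46.8 and 435 CPM (-2.32). DESeq2 called these 3. Without the library in the fit none of the 3 was called, and Crisp2 lost the call without plate 1 or 4. A single cell gave 150 of the 339 Ldhc UMIs among the cells with none of the 3 genes. Meig1 (-2.55), Cetn1 (-2.39), Cox8c (-2.11), Pdcl2 (-1.93), Cox6b2 (-1.87), AA467197 (-1.87), AY036118 (-1.85), Fhl4 (-1.80) and Pelo (-1.80) completed the 12. Of the spermatocyte list Ldhc alone was called among 6 tested genes, beside 0.929% of all genes called lower. Of the spermatid list Odf2 was called among 2 (log2 fold change -1.09, edgeR adjusted p = 0.0485). Odf2 was not called without the filter or in DESeq2.

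No class of cells that should lack these genes was at hand to give a background of free RNA. The 36 Plzf +/+ cells with 100 or more spermatid UMIs (median 14772 UMIs) held Gfra1 in 23 cells (63.9%), Id4 in 17 (47.2%), Dazl in 29 (80.6%) and Lin28a or Nanos3 in 17 (47.2%), so they carried spermatogonial transcripts as well. Upp1 was found in 3 of them (8.33%; 1.75 to 22.5), Neurog3 in 1 and Ddit4 in 7 (19.4%; 8.19 to 36). The part of free RNA in the shares of progenitor-like cells was not tested.

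In Plzf lu/lu testes the same rule took 70 of 314 cells of plate 3 (22.3%; 17.8 to 27.3) and 5 of 38 cells of plate 4 (13.2%; 4.41 to 28.1). The mean share over libraries was 17.7% ± 6.46 (SD, n = 2) against 12.2% ± 2.59 (SD, n = 3) in Plzf +/+, a difference of 5.54 percentage points with an exact two-sided permutation p of 0.6, where 0.1 is the smallest that 3 against 2 libraries allow. The plate 4 libraries of the genotypes were at 13.2% and 14.1%. This design could not have passed a threshold of 0.05, so the p says nothing of whether the shares are alike. At 2000 UMIs a cell the difference, not tested, was -0.371 percentage points. Since Gfra1 is part of the rule, a lower Gfra1 count in a library also moves cells into it. The authors reported Gfra1 in a smaller fraction of Plzf lu/lu than of Plzf +/+ cells. The rule can thus take a different mix of cells in each genotype, also for the gene comparison below, and this was not tested.

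Within the progenitor-like cells, edgeR called 139 of 5891 genes between genotypes (2.36%), 68 higher (1.15%) and 71 lower (1.21%) in Plzf lu/lu. Zbtb16, the gene that carries the luxoid mutation, was read as a check of the labels. It stood at 95.7, 86.8 and 72.9 CPM in Plzf +/+ (plates 1, 2 and 4) and at 15.5 and 0 CPM in Plzf lu/lu (plates 3 and 4; log2 fold change -2.56, SE 0.5, edgeR adjusted p = 0.000903). It was found in 46 of 109 Plzf +/+ and 7 of 75 Plzf lu/lu cells. The Plzf lu/lu library of plate 4 holds only 5 such cells and 43628 UMIs. Without it 252 genes were called, and without that of plate 3, 4 genes, while leaving out the Plzf +/+ library of plate 2 or 4 gave 81 and 65. DESeq2 called 7 genes (0.119%).

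Both progenitor genes fell. Upp1 stood at 119, 145 and 117 CPM in Plzf +/+ and 42.7 and 0 CPM in Plzf lu/lu (log2 fold change -1.70, SE 0.37, edgeR adjusted p = 0.00376), and Ddit4 at 106, 96.5 and 81 CPM against 25.2 and 22.3 CPM (-1.91, SE 0.42, adjusted p = 0.00405). Neither gene overlapped between genotypes. On plate 4, which held both genotypes, both genes differed the same way. There the 5 Plzf lu/lu cells held 0 UMIs of Upp1 and 1 UMI of Ddit4, too few to tell much. Upp1, Ddit4 and Zbtb16 lost the call under DESeq2, and also when plate 3 was left out and the 5 cells of plate 4 stood alone for Plzf lu/lu. Neurog3 had 19 UMIs in 15 Plzf +/+ cells and 3 UMIs in 3 Plzf lu/lu cells, and its difference was not called (edgeR adjusted p = 0.548 without the filter). Sox3 was found in 22 of 75 Plzf lu/lu cells and 19 of 109 Plzf +/+ cells (log2 fold change 0.90, edgeR adjusted p = 0.294), and Rarg in 16 and 15 (adjusted p = 0.83 without the filter). Any of the 10 progenitor genes was found in 63 of 75 Plzf lu/lu cells (84%; 73.7 to 91.4) and 91 of 109 Plzf +/+ cells (83.5%), and any of the 5 singled out above in 42 (56%) and 72 (66.1%). Of the 10 genes of the list 5 passed the filter, 2 fell and 0 rose, beside 1.21% and 1.15% of all genes, with a median of -0.44 beside -0.03 over all genes tested.

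**Figure D5:**
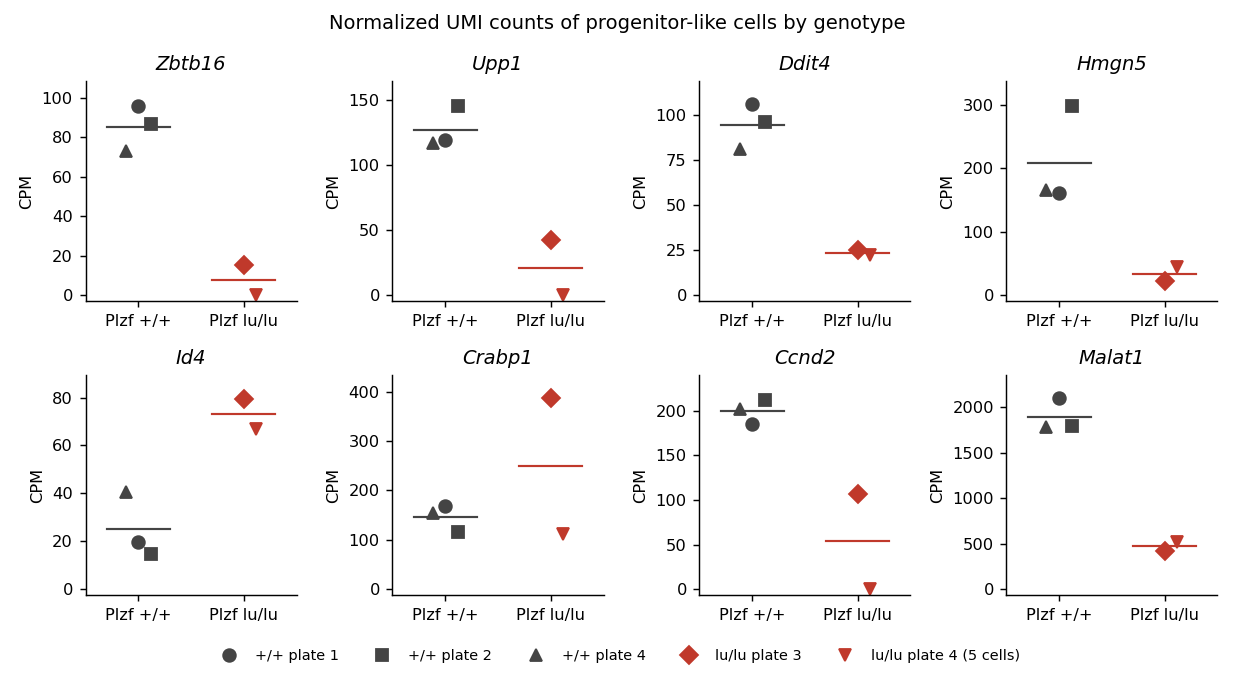
CPM (y axis) of 8 genes in the sum of progenitor-like cells of each library, Plzf +/+ in dark grey (3 libraries) and Plzf lu/lu in red (2 libraries); horizontal lines are means. Zbtb16, Upp1, Ddit4, Hmgn5, Malat1 and Ccnd2 were lower and Id4 higher in both Plzf lu/lu libraries, while Crabp1 of plate 4 (112 CPM) lay below the Plzf +/+ libraries. The Plzf lu/lu library of plate 4 holds 5 cells.

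Of the stem cell list 9 genes passed the filter, of which 2 had a positive and 7 a negative log2 fold change (median -0.91 beside -0.03 over all genes), and 4 had an unadjusted p under 0.05. The sum of the list was 647 to 864 CPM in Plzf +/+ and 537 and 321 CPM in Plzf lu/lu, each library of the latter below each of the former. Against that direction Id4 was called higher, at 19.8, 14.5 and 40.5 CPM in Plzf +/+ and 79.6 and 67 CPM in Plzf lu/lu (log2 fold change 1.62, SE 0.44, edgeR adjusted p = 0.033), and was found in 15 of 109 and 26 of 75 cells. It lost this call in 6 of 11 alternative fits. Ccnd2 fell (-1.08, edgeR adjusted p = 0.033), at 185, 212 and 202 CPM against 107 and 0 CPM, but was not called without the filter or in DESeq2. Crabp1, which binds retinoic acid in the cytoplasm, was called higher (1.17, edgeR adjusted p = 0.0033), but on plate 4 it was at 112 CPM in Plzf lu/lu and 154 CPM in Plzf +/+, so the call rested on plate 3. Stra8 and Sohlh1 were not called (log2 fold changes 0.24 and -0.39, edgeR adjusted p = 0.936 and 0.507).

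The largest changes lay elsewhere. In Plzf lu/lu cells Cyfip2, a partner of the WAVE complex (4.39), Ifitm2, an interferon-induced membrane protein (4.20), H2-Q2, of the MHC class I family (3.41), Rps15a-ps8, a pseudogene (3.07), Coro1a, an actin-binding protein (3.03), Itpka (2.86), Mdk, a heparin-binding growth factor (2.59), Anxa2 (2.06), Rsph9 (2.04), Tgif1 (2.01) and Cthrc1 (1.98) rose, all on the log2 scale. Rps15a-ps8 shares sequence with its parent gene, so its counts are uncertain. It stood at 155, 116 and 182 CPM against 1302 and 1251 CPM, and was 1 of the 7 genes called by DESeq2. Hmgn5 (-2.99), Ppfibp2 (-2.88), Rabgap1l (-2.54), Ddx26b (-2.49), Ktn1 (-2.30), Fendrr (-2.12), Malat1 (-2.08), Bicc1 (-1.93), Eif4g3 (-1.90) and Acaca (-1.89) fell beside Zbtb16 and Ddit4. Malat1, a nuclear noncoding RNA, stood at 2095, 1789 and 1777 CPM against 423 and 514 CPM (edgeR adjusted p = 2.52e-13). Of the genes named here by size, Rps15a-ps8 and Malat1 kept the call in every alternative run.

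Gene length and measures of RNA moved with the comparison of genotypes. The median genomic span was 92.4 kb for the genes called lower in Plzf lu/lu, 7.46 kb for those called higher and 22.5 kb for all genes tested, with a span for 91.2% or more of each set. In the comparison with Gfra1 cells the genes called higher had a median span of 10.4 kb, those called lower 23.5 kb and all genes tested 22.9 kb. The median share of mitochondrial UMIs was 3.98% in Plzf lu/lu and 5.06% in Plzf +/+ progenitor-like cells, and that of ribosomal protein genes 8.99% and 8.23%. The part of these measures in the calls was not tested. Ddit4, Id4 and Malat1 span 2.1, 4.91 and 6.98 kb, Upp1 18.2 kb and Zbtb16 184 kb. Only plate 4 held both genotypes, and on plates 1 to 3 genotype cannot be told apart from plate.

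The step from Gfra1 to progenitor-like cells was also read in Plzf lu/lu cells, without matching or test. On plate 3, 22 of the 24 genes named by size in the Plzf +/+ comparison differed in the same direction. These were all 12 higher genes and 10 of the 12 lower ones. Some differences were small, as for Ddit4 at 24.3 against 17.3 CPM (13 and 6 UMIs) and Mfsd5 at 37.4 against 31.7 CPM. Peo1 was at 63.6 against 54.8 CPM and Thnsl2 at 5.62 against 5.77 CPM (3 and 2 UMIs). The share of all genes that kept their direction was not counted. On plate 4, with 5 progenitor-like cells, 18 differed in that direction and Mfsd5 in the other (1 UMI in each class). The other 5 had no UMI in either class, among them Upp1, Plvap and Mpzl2. Several of the 18 rested on 1 UMI against 0, among them Oasl2, Ddit4, Lhx1 and Rasl11a. On plate 3, Upp1 had 22 UMIs (41.2 CPM) in progenitor-like and 2 UMIs (5.77 CPM) in Gfra1 cells. Nefm had 10 (18.7 CPM) and 44 (127 CPM), and Id4 41 (76.7 CPM) and 40 (115 CPM). Whether the step differs between genotypes was not tested.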

How the data were processed

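RNA of single tdTOMATO+ cells, 1 per well on 4 plates of 384 wells, was read at 3′ ends. For each genotype the authors deposited 1 table of UMI counts (gene symbols by cells) without normalization (25004 and 24381 symbols, 26041 in all; a symbol missing from 1 table was taken as 0). The submitters' processing notes name bcl2fastq 2.18.0.12, Picard 2.9.3, STAR 2.5.4a and GRCm38. The suffix in each cell's name and the sample labels gave its plate, and on plate 4 the table gave the genotype. Depth was 2005033 to 2372452 UMIs per Plzf +/+ library and 2608702 and 254514 UMIs for Plzf lu/lu.

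UMIs were summed per library and cell class. Matching was 1 to 1 within a library by optimal assignment on log10 total UMIs. Sums were tested in edgeR 4.0.16 (R 4.3.3; filterByExpr, TMM, glmQLFit and glmQLFTest, robust) with Benjamini-Hochberg adjustment over all genes tested, after leaving out the 9 genes of the rule; DESeq2 1.42.0 was an alternative. CPM are TMM-normalized. Both classes of a comparison within Plzf +/+ came from the same plates, so the library was a block; deviations of the classes from their means correlated at 0.06 to 0.12 over genes for Gfra1 cells and 0.10 to 0.13 for cells with none of the 3 genes. Thinning to 2000 UMIs was without replacement (seed 1). No doublets were removed, and no progenitor-like cell had over 4 times the median UMIs. The members, and 21 lists of 328 genes (317 matched), were chosen with earlier results of these data known. Genes were named as the 12 a direction with the largest log2 fold change among those called and moving the same way in every library (between genotypes, not overlapping), without Gm and Rik symbols, plus list members called and a set of identity genes; 1 of the genes is not reported here. The procedure was tested on simulated data.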

Additional observations from a re-analysis of the deposited data

How the results depend on the processing

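For progenitor-like against Gfra1 cells, the 246 calls became 120 with no library block, 18 with DESeq2, 561 on all Gfra1 cells, 58 after thinning to 2000 UMIs, 138 with at least 2 UMIs of Lin28a and Nanos3, 73 for Lin28a alone and 157 for Nanos3 alone, and 77 to 156 with 1 library left out. Against cells with none of the 3 genes, the 68 calls became 6 with no library block, 3 with DESeq2, 108 with no filter, 121 with a lower filter (minimum counts of 3 and 10, chosen after seeing the data), 143 unmatched, 6 after thinning and 2 to 96 with 1 library left out. Between genotypes, the 139 calls became 7 with DESeq2, 81 with no filter, 51 after thinning and 4 to 252 with 1 library left out. The title numbers shared by the genotypes stand for different plates, and a replicate block on them gave 3 calls; deviations of same-numbered libraries correlated at -0.04 and -0.02. At an unadjusted p under 0.05, edgeR and DESeq2 had 842 and 192, 512 and 62, and 881 and 195 genes in the 3 comparisons. The causes of these changes were not tested, beyond the fewer UMIs, cells or samples that some settings use.

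The mean share of progenitor-like cells, 12.2%, was 5.9% with at least 2 UMIs and 11.2% to 13.7% with 1 Plzf +/+ library left out. The difference between genotypes, 5.54 percentage points, was -0.371 after thinning and 0.968 to 10.1 with 1 library left out. Of the alternative fits of single genes named here or fixed as identity genes, 1064 kept direction and side of the threshold where called, 234 lost the call and 2 gained one. Genes with few UMIs, such as Neurog3, Sox3 and Rarg, are limited by depth.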

Other observations

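Some genes outside the lists were called in the comparison with Gfra1 cells and were picked here after their values were seen. They describe single genes and no pathway. Psmb10, an immunoproteasome subunit, and Psme2 and Psme1, subunits of a proteasome activator, were called higher in progenitor-like cells. Psmb10 stood at 160, 242 and 163 CPM on plates 1, 2 and 4 against 78.2, 28.9 and 91 CPM in Gfra1 cells (log2 fold change 1.42, edgeR adjusted p = 3.01e-06), Psme2 at 397, 353 and 395 CPM against 251, 207 and 186 CPM (0.82, adjusted p = 0.000117), and Psme1 at 307, 315 and 281 CPM against 235, 140 and 174 CPM (0.69, adjusted p = 0.00648). Erap1, an aminopeptidase that trims peptides for MHC class I (1.40), and Irf1, an interferon-responsive transcription factor (1.04), were also called higher. Irf1 was at 93.7 and 91 CPM on plate 4, so it did not part the classes there.

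Map1lc3b and Gabarapl1, ubiquitin-like proteins of the autophagosome, rose by log2 fold changes of 0.93 and 1.61 (edgeR adjusted p = 9.06e-10 and 0.00109). Map1lc3b was at 807, 644 and 774 CPM against 408, 361 and 401 CPM. Among early growth response genes, Egr4 rose (1.27, edgeR adjusted p = 0.00112), as did their corepressor Nab2 (1.61), while Egr2 fell, from 280, 323 and 298 CPM in Gfra1 cells to 86.7, 58.1 and 93.7 CPM (-1.88, edgeR adjusted p = 3.05e-14). Of 77 cytosolic ribosomal protein genes tested 16 were called higher, beside 2.41% of all genes, and 68 had a positive log2 fold change, with a median of 0.24 beside 0.01 over all genes, and the median share of their UMIs was 8.23% in progenitor-like and 7.53% in matched Gfra1 cells.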
